A study of Homo sapiens with 2 samples.

Results

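Ubiquitin ligases and deubiquitinases are the enzymes that attach the small protein ubiquitin to other proteins and take it off again. Their mRNAs were examined here among the RNAs recovered with a catenin immunoprecipitation (IP) from MDA-MB-231 cells, a human breast cancer line of triple-negative, mesenchymal type. Genes were chosen by symbol alone, from families such as USP, OTUD, UBR, UBE, HERC, HECT, NEDD4, TRIM, RNF, CUL, FBX and KLHL, together with UBA genes, CBL, HUWE1, BIRC6 and MYCBP2. FBXW11 was left out by the rule. The choice gave 58 genes of the 1658 with a listed peak, which is 3.50%. The series holds 2 samples of this cell line, the catenin IP and an input, both total RNA and each a single library. The title of the IP sample reads B-catenin, so the target is taken to be beta-catenin, while the protocol says only catenin. Neither the antibody itself nor any treatment, time or genetic change is given in the sources used here. Only the peak list of the IP library was used, so no value below has a replicate and no test across samples was made. The stated aim of the series is a screen for long noncoding RNAs that bind catenin, and these mRNAs are a different class of RNA in the same list.

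Ubiquitin is activated by an E1 enzyme, passed to an E2 enzyme and placed on a target protein by an E3 ligase. HECT-type ligases carry the ubiquitin on themselves before transfer, RING-type ligases bring the E2 to the target, and cullins are scaffolds that join a RING protein to exchangeable adaptors such as F-box and BTB-kelch proteins. Deubiquitinases remove or trim the chains. Beta-catenin is itself a well-known target, since a CUL1 ligase with an F-box adaptor marks it for the proteasome.

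The group held 1 E1, 1 E2, 1 gene for an enzyme that combines E2 and E3 activity, 10 HECT-type ligases, 18 RING-type and other ligases, 5 cullins, 3 F-box adaptors, 2 BTB-kelch adaptors and 16 deubiquitinases. The last gene, USP6NL, is named for its likeness to part of USP6 and encodes a Rab GTPase-activating protein, so it goes against the label of the group. HERC5 is best known for attaching the ubiquitin-like protein ISG15, and TRIM44 lacks the RING domain of its family. Of the marker genes of the cell type, 3 of 12 basal and mesenchymal genes had a peak (EGFR, FN1 and ZEB1), against 0 of 12 luminal and 0 of 8 immune and blood genes. The marker VIM was among those without a peak, so absence from the list does not show that an RNA is absent from the cells.

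A tag is a sequenced fragment counted in a peak. The tags given for a gene are those in all peaks of its most tag-rich transcript, tags per kb divide this sum by the length of those peaks, and a gene's fold is the authors' fold enrichment at its highest peak. The 58 genes carried 3386 tags in 106 peaks, 2.53% of the 133739 tags over all chosen transcripts. Tags per gene ran from 11 to 297, a 27-fold range, while tags per kb ran from 17.0 to 54.7, a 3.21-fold range. Genes with more tags were thus mainly those with a longer stretch of transcript in peaks. Across the 58 genes, which share a library and for which tags accrue with the stretch covered, Spearman's rho between tags and summed peak length was 0.94 as a description, against 0.92 across the 1600 other genes.

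Typical values of the group lay close to those of the rest of the list. Without a score minimum, the median was 41 tags per gene in both the group and the other genes. The median fold was 8.10 in the group and 7.52 in the others, and the median density was 26.9 tags per kb against 29.9. A fold of at least 10 was reached by 19 of the 58 genes, or 32.8%, beside 30.3% of all 1658 genes, so the group did not stand out by fold. More than 1 peak was found in 21 of the 58 genes, or 36.2%, beside 31.5% of all genes. Among genes with a single peak the medians were 26 tags in the group and 25 in the others, and among genes with several peaks they were 77 and 80.

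**Figure D1:**
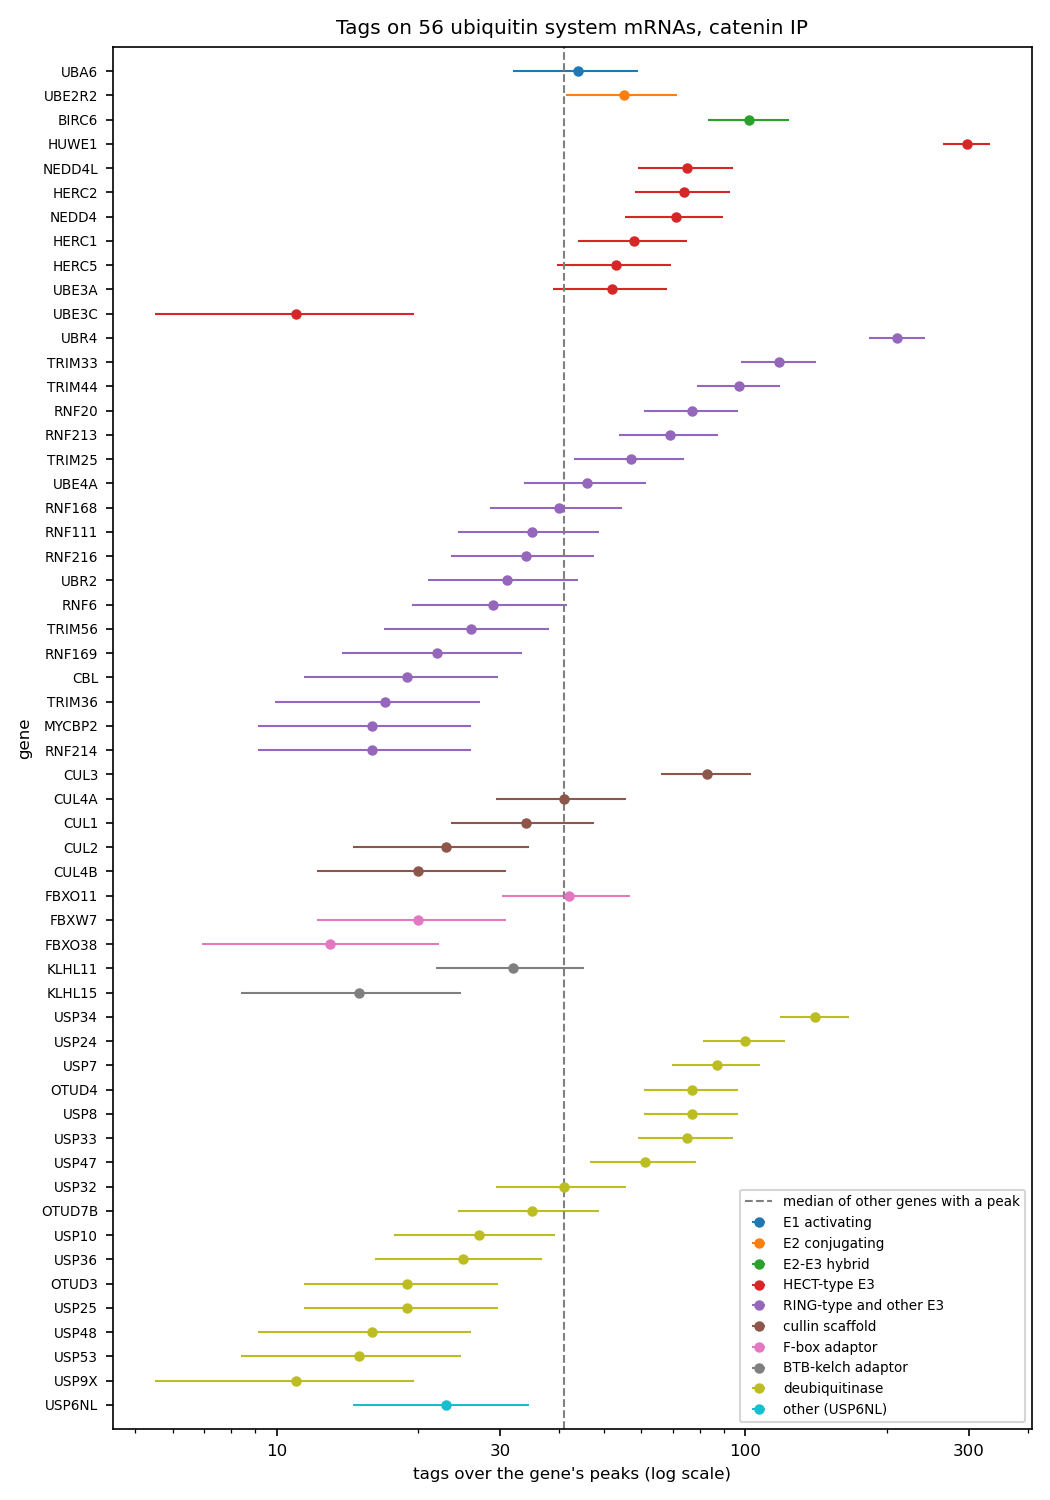
Tags over the peaks of 56 of the 58 genes in the catenin IP library (log scale), ordered by class; bars are exact 95% Poisson intervals, which cover counting error only, and the dashed line is the median of the 1600 other genes, 41. HUWE1 and UBR4 lie furthest right, and UBE3C and USP9X furthest left at 11 tags each.

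The classes differed in how many of their genes appeared in the list at all. Over the protein-coding genes of the reference table, 57 of 402 genes of the 9 enzyme, scaffold and adaptor classes had a peak, or 14.2%, beside 8.12% of all 20056 protein-coding genes. Cullins had a peak in 5 of 8 cases (62.5%, exact Clopper-Pearson interval 24.5 to 91.5%), HECT-type ligases in 10 of 18 (55.6%, 30.8 to 78.5%) and deubiquitinases in 16 of 59 (27.1%, 16.4 to 40.3%). These intervals, at 95%, describe the size of the counts only, since genes are not replicates, and they lie above the background share. RING-type and other ligases had a peak in 18 of 175 cases (10.3%, 6.21 to 15.8%). For adaptors and E2 enzymes the counts were 3 of 62 F-box genes (4.84%, 1.01 to 13.5%), 2 of 37 BTB-kelch genes (5.41%, 0.66 to 18.2%) and 1 of 35 E2 genes (2.86%, 0.072 to 14.9%). The intervals of these 4 classes contain the background share. The F-box count leaves out FBXW11, which had a listed peak but was set aside by the rule. Within the RING-type group the RNF family had 8 of 85, the TRIM family 5 of 77. The deubiquitinase count of 59 leaves out 25 USP17 copies, which had no listed peak, and the share would be lower with them. Gene copies in the TRIM family, such as TRIM49B, stayed in the count.

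The classes also differed in how far along the transcript their peaks reached, which sets a lower limit on transcript length. The median end of the last peak was nt 6031 in the HECT-type ligases, nt 2817 in the deubiquitinases, nt 2482 in the RING-type ligases and nt 1963 in the F-box adaptors. It was nt 1411 in the cullins, each of which had a single peak. Transcript lengths and RNA levels were not in the files, and their part in the shares was not tested.

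**Figure D2:**
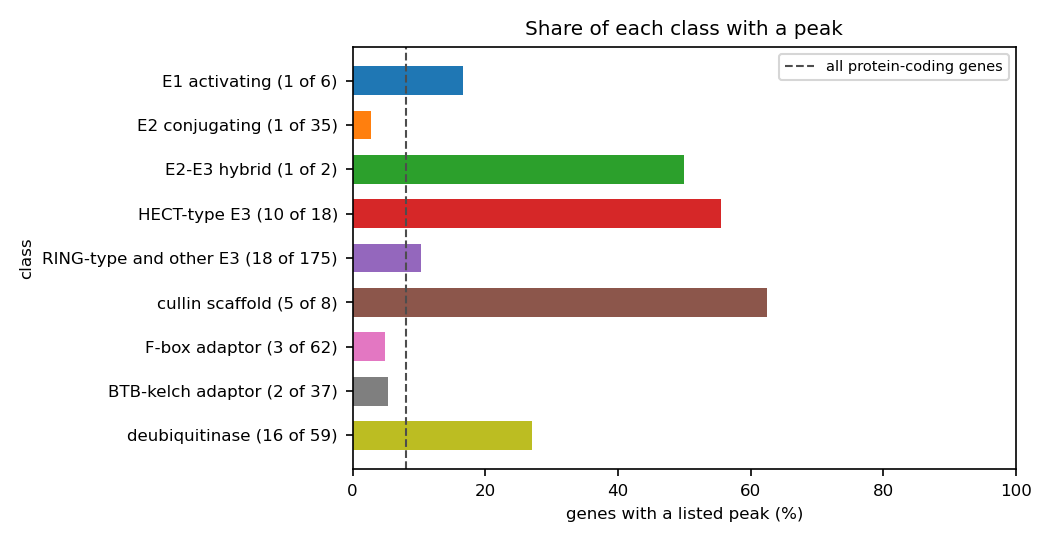
Share of the protein-coding genes of each class that had a listed peak in the catenin IP library, in percent, with the counts beside each class name; the dashed line is the share over all protein-coding genes, 8.12%. Cullins, HECT-type ligases, deubiquitinases, the E1 and the E2-E3 hybrid lie above the line, the last 2 with 1 listed gene each. RING-type ligases, just above the line, and adaptors and E2 enzymes, below it, lie nearer to it. The binomial intervals of these classes, and those of the E1 and the E2-E3 hybrid, contain the line. USP17 copies and FBXW11 are left out.

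At the start of the enzyme cascade, UBA6, an E1 that activates ubiquitin and the related modifier FAT10, had 44 tags in 2 peaks and a fold of 9.84. The general ubiquitin E1 gene UBA1 had no listed peak. UBE2R2, an E2 that works with cullin-RING ligases, had 55 tags (Poisson interval 41.4 to 71.6) in 1 peak from nt 281 to 1285 of ENST00000263228. Its density of 54.7 tags per kb was the highest of the group, and its fold of 3.68 the lowest. High density and low fold thus met in the same gene. BIRC6, a giant inhibitor of apoptosis that combines E2 and E3 activity, carried 102 tags (83.2 to 124) in 4 peaks with a fold of 9.26. Of these, 3 lay between nt 970 and 4441 of ENST00000421745 and the last covered nt 11386 to 11957, after a gap of 6944 nt, the longest between neighbouring peaks in the group.

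HECT-type ligases had the highest median of the larger classes, 72.5 tags per gene, beside 41 over all genes. Of the 10, 7 had several peaks, beside 31.5% of all genes, and other genes with several peaks had a median of 80 tags. The median density of the class was 26.7 tags per kb, against 29.9 in the other genes. HUWE1, a giant ligase whose targets include MCL1 and p53, led the whole group with 297 tags (264 to 333), a fold of 27.78 and 7 peaks. It ranked 64 of 1658 by tags and 43 by fold, while only PLEC had more peaks. The values of the other genes of the class named below were lower, at 75 tags or fewer.

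The 7 peaks of HUWE1 were spread from nt 170 to 13446 of ENST00000342160 and covered 55.8% of that stretch. Tag density differed between the peaks called along it. The peak at nt 6813 to 8208 held 86 of the 297 tags, or 61.6 tags per kb (49.3 to 76.1), and carried the highest fold. The peak at nt 10676 to 11340 held 13 tags, or 19.5 per kb (10.4 to 33.4), with a fold of 5.79. The intervals of these peaks do not overlap. These are the densest and the least dense of the 7 peaks, picked by their values. Peak bounds were also set by the caller, so the gap between the intervals is no test of evenness along the transcript. The other 5 peaks had 20 to 53 tags and folds from 6.37 to 15.05.

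HERC2, a giant ligase of the DNA damage response, had 74 tags in 4 peaks from nt 4314 to 13361 of ENST00000261609, with a fold of 7.52. HERC2 has 11 pseudogenes by name in the reference table, so its tags may include fragments of near-identical copies. Fewer were listed for UBE3A, RNF216, RNF6, CUL4A, CUL1, USP24, OTUD4, USP8, USP32 and USP10, where the same limit applies. HERC1, a giant relative of HERC2, had 58 tags in 3 peaks, also at a fold of 7.52. NEDD4L, a WW-domain ligase that controls the epithelial sodium channel, had 75 tags in a single peak of 1814 nt at a fold of 8.39, and its paralog NEDD4 had 71 tags in 2 peaks at a fold of 10.46. The tag counts of the NEDD4 pair differed by less than their counting error.

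Among the smaller HECT-type genes, HERC5 had 53 tags at a fold of 7.10. UBE3A, the ligase lost in Angelman syndrome, had 52 tags in 2 peaks at a fold of 8.10. UBE3C, a proteasome-associated ligase, was at the low end of the whole group with 11 tags (5.49 to 19.7) in 1 peak of 472 nt and a fold of 5.79. Of the genes of this class, 8 had no listed peak, among them HERC3, HERC4, HERC6 and UBE3B.

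**Figure D3:**
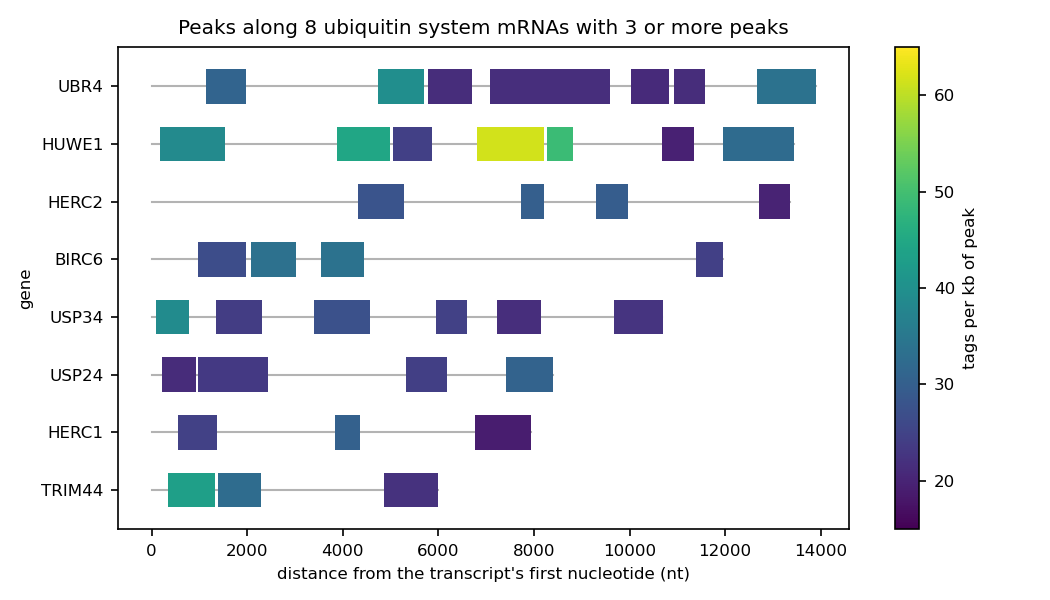
Position of the peaks along the transcripts of 8 of the 10 genes with 3 or more peaks, as distance in nt from the first nucleotide of the transcript, with colour for tags per kb of peak; grey lines end at the last peak, not at the transcript's end. HUWE1 and UBR4 have 7 peaks each, and the brightest peak is that of HUWE1 at 61.6 tags per kb.

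Genes with at least 4 peaks were 8 of the 58, or 13.8%, beside 3.56% of all genes with a peak. Among them were HUWE1, UBR4, USP34, BIRC6, HERC2 and USP24, and the 8 held 1287 tags, 38.0% of the tags of the group. Neighbouring peaks of the group were separated by 43 to 6944 nt, with a median of 666 nt over 48 gaps, beside 517 nt over 734 gaps in the other genes. In 7 of the 48 gaps the distance was below 100 nt (14.6%, beside 16.2% in the other genes), so a count of peaks depends on where the peak caller split a stretch.

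RING-type and other ligases were led by UBR4, a giant N-recognin, which binds proteins through their N-terminal residues. It had 211 tags (183 to 241) in 7 peaks from nt 1130 to 13901 of ENST00000375254, with a fold of 14.47. Its densest peak, at nt 4731 to 5693, had 39.5 tags per kb (27.9 to 54.2), and 4 neighbouring peaks between nt 5774 and 11585 had 20.9 to 21.5. The related N-recognin UBR2 had 31 tags in a single peak at a fold of 10.42.

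TRIM33, a nuclear regulator of SMAD4, had 118 tags (97.7 to 141) in 2 peaks at a fold of 13.31, and TRIM44 had 97 tags in 3 peaks at a fold of 11.11. RNF20, which puts ubiquitin on histone H2B, had 77 tags in 1 peak of 2494 nt at a fold of 9.59. RNF213, a giant ATPase and ligase linked to moyamoya disease, had its 69 tags in 1 peak of 1271 nt, at nt 810 to 2080 of ENST00000319921. The density there was 54.3 tags per kb (42.2 to 68.7) and the fold 21.42, the second of the group after HUWE1. MYCBP2, another giant ligase, known from the nervous system, had only 16 tags in 1 peak of 690 nt at a fold of 8.10. The genes of giant ligases thus had from 1 to 7 peaks.

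TRIM25, which acts on the RNA sensor RIG-I, had 57 tags at 50.1 tags per kb, with a fold of 5.31, against 16.21 for the deubiquitinase gene USP7 at 48.5 tags per kb. UBE4A, a U-box enzyme, had 46 tags in 2 peaks at a fold of 11. RNF168, which ubiquitinates histone H2A at DNA breaks, had 40 tags in 2 peaks at the same fold. Its relative RNF169, which binds such chromatin, had 22 tags at 6.37. RNF111 (Arkadia), which acts in TGF-beta signalling, had 35 tags at a fold of 11.58.

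The other RING-type genes each had a single peak. RNF216 had 34 tags at a fold of 6.37, RNF6 29 tags at 4.61 and TRIM56, a ligase of antiviral signalling, 26 tags at 6.95. CBL, which ubiquitinates activated receptor tyrosine kinases, had 19 tags at 8.68. TRIM36 had 17 tags at 6.95 and RNF214 16 tags at 5.90. These 6 genes thus had 16 to 34 tags each.

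Cullins were listed in 5 of 8 cases, all with a single peak and a fold below 10. Over all 1658 genes, 1136 had a single peak and 30.3% reached a fold of 10. Neither trait is thus particular to the cullins. CUL3, the scaffold for BTB adaptors, had 83 tags (66.1 to 103) in a peak of 2594 nt, the longest of the group, at a fold of 8.26. CUL4A and CUL4B, the paralogs that work with DDB1, had 41 tags (29.4 to 55.6) at a fold of 5.06 and 20 tags (12.2 to 30.9) at 5.89. CUL1, the scaffold of the ligase that acts on beta-catenin, had 34 tags (23.5 to 47.5) at 6.61, and CUL2, which pairs with the VHL protein, had 23 tags (14.6 to 34.5) at 6.29. Only the interval of CUL3 was separate from those of the other cullins. CUL5, CUL7 and CUL9 had no listed peak.

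The listed adaptors had 13 to 42 tags each, beside a median of 25 over the other genes with a single peak. The intervals of their class shares contain the background share, as given above. FBXO11, which targets BCL6, had 42 tags at a fold of 13.31. FBXW7, the adaptor for cyclin E, MYC and Notch and a tumour suppressor, had 20 tags at 9.26, and FBXO38, known for PD-1, had 13 at 5.21. Of the BTB-kelch genes, KLHL11 had 32 tags at 10.42 and KLHL15 had 15 at 6.95. Each of these 5 genes had 1 peak. USP6NL, outside all classes, had 23 tags at a fold of 5.21, and its 17.0 tags per kb were the lowest of all 1658 genes.

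Deubiquitinases were led by the giant USP34, with 141 tags (119 to 166) in 6 peaks from nt 94 to 10689 of ENST00000398571 and a fold of 10.42. Its peaks held 16 to 32 tags each at 21.5 to 39.0 tags per kb, with overlapping intervals. USP24, another giant, had 100 tags (81.4 to 122) in 4 peaks at a fold of 8.68. USP7, which removes ubiquitin from p53 and MDM2, had a different form: its 87 tags (69.7 to 107) lay in 1 peak, at nt 267 to 2061 of ENST00000344836, with 48.5 tags per kb (38.8 to 59.8) and a fold of 16.21, the highest of the class. The densities of USP7 and of USP34, 26.0 tags per kb over its peaks (21.9 to 30.7), have intervals that do not overlap. USP7 had the highest density of the class, so this pair was picked by value.

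OTUD4 and USP8 each had 77 tags in 2 peaks, with folds of 14.47 and 13.56. USP8 sorts receptors at endosomes. USP33 had 75 tags in 1 peak of 2238 nt at a fold of 7.66, and USP47 had 61 tags in 2 peaks at 6.87. USP32 had 41 tags and OTUD7B (Cezanne), which restrains NF-kappa B signalling, had 35, both in 2 peaks at a fold of 8.10. These genes make up the middle of the class, whose median was 38 tags.

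The remaining deubiquitinases had 1 peak each. USP10 had 27 tags at a fold of 5.36 and USP36, a nucleolar enzyme, 25 at 11. OTUD3 and USP25 had 19 tags each, at folds of 7.52 and 9.26. USP48 had 16 tags at 8.10, USP53 15 at 5.21, and USP9X, the X-linked enzyme that stabilises MCL1, 11 (5.49 to 19.7) at 5.21. The genes from OTUD3 to USP9X are thus at the low end of the class.

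Fold has to be read with its scale in mind. In 85 of the 106 peaks of the group, or 80.2%, the fold fell on a multiple of 0.5788, within 0.006, beside 70.2% of all 2440 peaks, so that here it took stepwise values. All peaks of HUWE1, UBR4, USP34, BIRC6 and RNF213 were of this kind. None of the 5 cullin peaks was, and neither were those of UBE2R2, TRIM25, TRIM44, RNF20, RNF6, RNF214, HERC5, NEDD4L, USP8, USP10 or USP33, nor 1 of the 2 peaks each of NEDD4 and USP47. The denominator of the fold is not stated, and the part of these steps in the order of the folds was not tested.

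**Figure D4:**
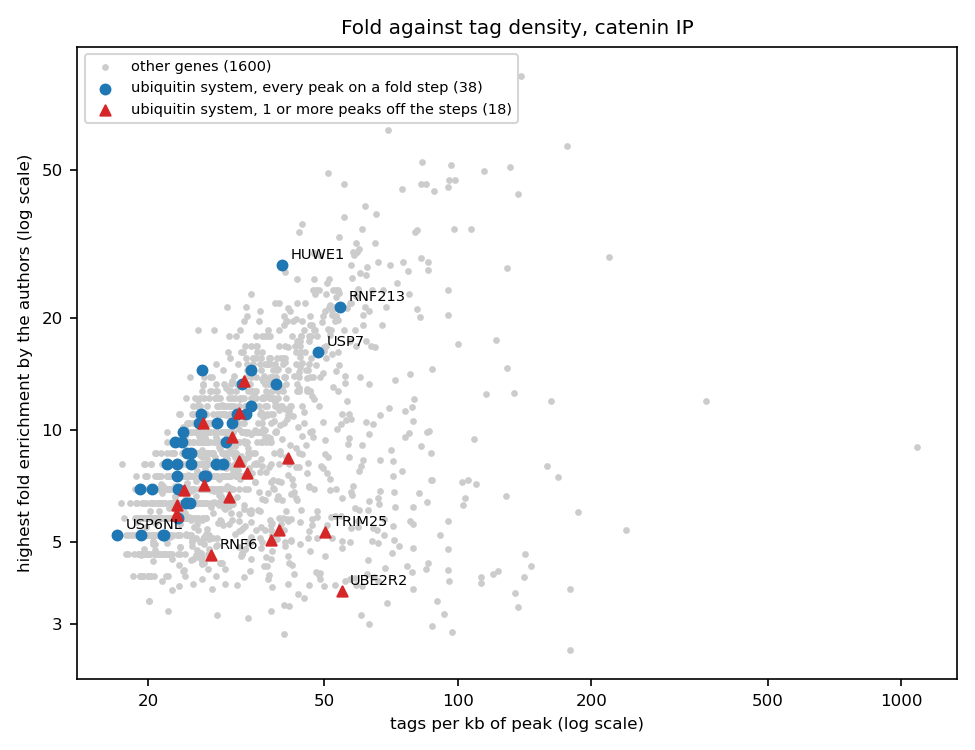
Highest fold enrichment by the authors against tags per kb of peak, both on log scales, for the ubiquitin system genes shown and the 1600 other genes with a peak in the catenin IP library; circles are 38 genes with every peak on the fold steps and triangles the other 18. UBE2R2 (54.7 tags per kb, fold 3.68) and RNF213 (54.3 tags per kb, fold 21.42) have nearly the same density and lie far apart in fold.

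The coding-only label was more frequent in the group than elsewhere. By the authors' labels, 64 of the 106 peaks (60.4%) lay in coding sequence alone, against 38.8% of the 2334 peaks of other genes. A further 24 were labelled 3' untranslated, 12 as 3' untranslated and coding, and 6 as 5' untranslated and coding. HECT-type ligases had 23 of 30 peaks with the coding-only label. The share was 66.7% among genes of the group with several peaks and 48.6% among those with 1 peak, against 41.8% and 35.4% in the other genes. The labels of the ends were unreliable within the group, and those of the other genes were not checked. The difference in the coding-only share is thus one of labels and was not tested as one of position. Of 5 peaks labelled 3' untranslated and coding that could be set against coding-only peaks of the same transcript, 4 lay upstream of all of them (among them those in HUWE1, USP32 and USP34), where a 3' end cannot lie, and so did 3 of 5 labelled 3' untranslated (in UBE3A and USP24).

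Other genes of the ubiquitin system, outside the symbol rule, were taken from a list of 207. Of these 38 had a peak, or 18.4%, beside the 8.12% of all protein-coding genes. The list was chosen with earlier results of these data known, so this share is a description only. Their median was 36.5 tags and their median fold 8.10. Further HECT-type ligases had a peak in 4 of 10 cases, and TRIP12 among them had 336 tags (301 to 374) and a fold of 32.99. Its interval overlaps that of HUWE1. SMURF1 (79 tags, fold 22), SMURF2 (70, 6.94) and ITCH (69, 4.35) were the others. RING-type and other ligases had a peak in 16 of 55 cases. RANBP2, a SUMO ligase of the nuclear pore, had 232 tags at a fold of 12.73, RLIM 152 at 15.63 and MDM2, the ligase of p53, 127 at 17.94. MDM4 had 93 tags at 15.05, DTX3L 89 at 19.68, ARIH1 81 at 11.58 and RC3H1, a regulator of mRNA decay, 76 at 11.

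The remaining lists, chosen with the same knowledge, are also read beside the background share of 8.12%, as a description. Of 50 genes with proteasome symbols, of which PSMC3IP and PSME3IP1 match by name only and are no subunits, 1 had a peak. This was PSME4, a large proteasome activator, with 92 tags at a fold of 13.31. None of 4 ubiquitin precursor and related fusion genes, 1 of 12 subunits and activators of the anaphase-promoting complex (CDC27) and 1 of 9 COP9 signalosome genes (COPS2) had one. Deubiquitinases and SUMO proteases outside the rule had a peak in 7 of 23 cases, with 18 to 40 tags. Ligase subunits and adaptors had one in 5 of 23 (VHL, CAND1, DCAF1, DCAF7 and DCAF8) and segregase and shuttle genes in 2 of 15. The partners of CUL1 in the ligase for beta-catenin, SKP1, RBX1 and BTRC, had no listed peak, while the adaptor gene FBXW11, set aside by the rule, had 20 tags at a fold of 9.84.

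Several transcripts were listed for 39 of the 58 genes. In 18 of the 39, the lowest of them carried at least 90% of the tags of the highest, and in 11 it carried less than 50%. USP34 ranged from 16 to 141 tags over its 4 transcripts and UBE3A from 14 to 52 over 13. The values above are those of the most tag-rich transcript in each case. No peak of the group coincided in position and tags with a peak of another symbol.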

How the data were processed

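The catenin IP library of MDA-MB-231 was described from its peak list; the input library on its own was not analysed here. Tag counts per peak are whole numbers as deposited by the authors, and per the file headers the fold enrichment is the authors' ratio at a peak. A score column, deposited without its name, served only to filter peaks. Positions are nt along Ensembl transcripts, counted from 1. The submitters' processing notes name hg18; the aligner, the caller and the background library: not given in the sources used here. Each symbol was represented by its transcript with the most tags. Names and denominators came from the RefSeq table for GRCh38.p14, without 25 USP17 copies and 6 genes outside the classes (CBLN genes and CBLIF among them). MARCHF6, whose symbol had become a date, was named from its description. The step of the fold was found by scanning steps in Python 3.11.15 with numpy 2.4.6 and pandas 2.3.3, and was tested on simulated data. Poisson intervals are exact at 95% (SciPy 1.17.1) and cover counting error only. Library depth is unknown. The members and lists were chosen with earlier results of these data known; members are named with their values except a few single genes that are not reported here, and of the other genes the 10 with the most tags, with further genes named after their values were seen. Planned protein lengths were not used here. No sequence is shown.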

Additional observations from a re-analysis of the deposited data

How the results depend on the processing

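The 6 values for the group as a whole (number of genes, median tags, median tags per kb, median fold, share with several peaks, share with a fold of at least 10) were recomputed under the alternatives, and the 9 class shares with a score of at least 50 only; including FBXW11 was run for the number of genes only. Of 40 values, 37 stayed within 1.5 times the main value or, for shares, within its exact binomial interval. The exceptions came from score minimums, which leave fewer peaks: a minimum of 100 left 23 of the 58 genes, of which 65.2% had a fold of at least 10 (68.6% of other genes), and a score of at least 50 left 0 E2 genes. The median tags per kb of the group, 26.9 against 29.9 in the other genes, stayed lower in every setting run, at 38.0 against 43.3 with a score of at least 100. The median tags per gene, equal in the main setting, were 42 against 53 in the other genes at a score of at least 50. They were 61 against 82 at 100, so the equality did not hold with these minimums. The median fold was 9.26 in both at a score of at least 50, and 11.11 against 12.16 at 100, so its order of 8.10 against 7.52 did not hold there; the cause was not tested. Including FBXW11 gave 59 genes and leaving out USP6NL 57. No paired analysis was possible because there is only 1 library of each kind. The denominator of genes with long proteins was not run. Depth limits the weakest genes most: 14 of the 58 rest on 20 or fewer tags.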

Other observations

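The KEGG annotation that the authors joined to the transcripts places 29 genes with a peak in ubiquitin mediated proteolysis. Of these, 19 belong to the 58 genes, and the others are FBXW11, BRCA1, CDC27, ITCH, MDM2, SMURF1, SMURF2, TRIP12, VHL and XIAP. The median of the 29 genes was 52 tags, beside 41 over all genes with a peak. The annotation lists none of the 16 deubiquitinases under this heading. In the endocytosis pathway it places 4 of the 58 genes, the ligases CBL, NEDD4 and NEDD4L and the deubiquitinase USP8, with 19 to 77 tags. In nucleotide excision repair it places the paralogs CUL4A and CUL4B. The shares of all genes with a peak in both pathways were not counted, so these counts only name the members. BRCA1, a RING-type ligase of DNA repair, had 12 tags (6.20 to 21.0) at a fold of 6.95, and TNFAIP3 (A20), which restrains NF-kappa B signalling, had 33 tags at a fold of 8.10.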
